A study of Saccharomyces cerevisiae with 12 samples.

Results

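The dependence of ADP-ribosylcyclase (ADPRC) enrichment on growth medium was measured in budding yeast, Saccharomyces cerevisiae, as the change after ADPRC in minimal medium minus the change after ADPRC in the rich medium YEPD. Each change was a difference of log2(normalized count + 1) between ADPRC and mock libraries of 1 medium. Members were all genes with a mean of at least 10 normalized counts over the 12 libraries, 5490 of 6607 distinct identifiers. MLS1, with a mean of 10.02, lay just inside that limit, and MCO32, with 9.87, just outside it. The comparison used all 12 libraries of the series and was repeated on 11 libraries, without YEPD ADPRC replicate 2.

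All libraries came from the haploid strain BY4742, of mating type alpha, in which HIS3, LEU2, LYS2 and URA3 are deleted, in every group alike. The 4 groups of 3 libraries were minimal medium with ADPRC, minimal medium with mock treatment, YEPD with ADPRC, and YEPD with mock treatment. Minimal medium held yeast nitrogen base, amino acids and 2% dextrose, and YEPD also held 2% dextrose. Cells were in mid-log growth. Mock RNA met the alkyne 4-pentynol without the enzyme and then went through the same biotin coupling and streptavidin capture. In lists of values below, replicates stand in the order 1, 2 and 3, and YEPD ADPRC libraries in the order unnumbered, replicate 2 and replicate 3, since 1 column of that group carries no number. The labels do not tell whether replicates were grown as separate cultures, and p-values therefore rest on a spread that may be technical.

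Some eukaryotic RNAs begin with NAD in place of the usual cap of 7-methylguanosine. Such an RNA arises when RNA polymerase starts a transcript with NAD in place of ATP, and enzymes such as Rai1, Dxo1, Npy1 and the exonucleases Xrn1 and Rat1 can remove or degrade NAD-capped RNA. ADPRC swaps the nicotinamide of the cap for an alkyne, to which biotin can be joined, so that an RNA with an NAD cap is captured more in ADPRC than in mock libraries. Yeast makes NAD from tryptophan and from salvaged nicotinic acid, nicotinamide and nicotinamide riboside, and the supply of these precursors depends on the medium. The comparison asks which RNAs gained more in capture in 1 medium than in the other.

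One library stood apart before any gene was considered. The change over mock, taken gene by gene, had a standard deviation (SD) over the 5490 genes of 0.476, 0.519 and 0.456 in the minimal ADPRC libraries and of 0.322, 0.683 and 0.295 in the YEPD ADPRC libraries. Over genes, the mean change in minimal medium had a Pearson r of 0.780 with the change in YEPD ADPRC replicate 2, against 0.459 with the unnumbered library and 0.351 with replicate 3. The slopes of those relations were 1.15, 0.319 and 0.224. Open reading frames in and next to the repeated ribosomal DNA took 30.9 to 33.2% of the reads in minimal ADPRC and 50.7 to 54.7% in minimal mock libraries. They took 64.8% in YEPD ADPRC replicate 2, 78.3% and 79.5% in the other YEPD ADPRC libraries and 78.7 to 80.9% in YEPD mock libraries. Libraries held 3246900 to 13958188 recovered reads, and 1515779 to 5497445 outside those frames. Because of this library, results below are given with all 12 libraries and again without it. Its part in the results was measured by leaving it out, and what set it apart was not tested.

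On all 12 libraries, no gene differed between the media past an adjusted p of 0.05. The share called was 0% of 5490 genes in either direction by limma, and the smallest adjusted p was 0.159. At an unadjusted p under 0.05, 462 genes were counted (8.42%), 224 with a higher change in minimal medium (4.08%) and 238 with a lower one (4.34%). edgeR and DESeq2 on recovered reads also called 0 genes. Leaving out any of the other 11 libraries gave 0 calls each time, while a fit with estimated weights per library called 527 genes higher and 576 lower on the same 12 libraries. Without YEPD ADPRC replicate 2, 492 genes had a higher change in minimal medium than in YEPD (8.96%) and 556 a lower one (10.1%), which together made 19.1% of the genes tested. At an unadjusted p under 0.05 these counts were 806 (14.7%) and 956 (17.4%), or 32.1%. Of the 1048 genes called, 1032 had the same sign with all 12 libraries and 281 were also at an unadjusted p under 0.05 there. The difference was over 2-fold higher for 71 of them and over 2-fold lower for 19. Some called genes had identical values in all libraries, such as ASP3-1 to ASP3-4 and HMLALPHA1 with MATALPHA1, so the 1048 count such values more than once. YEPD ADPRC then rested on 2 libraries, and 441 of the 1048 genes were called whichever further library was left out, 225 of them higher and 216 lower. The median difference over all genes was -0.01 in both fits. When every library was scaled to the same total, which includes the ribosomal DNA, that median became 0.36 on 11 libraries (-0.12 with the same total outside the ribosomal DNA), and the calls split into 1689 higher and 29 lower.

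**Figure D1:**
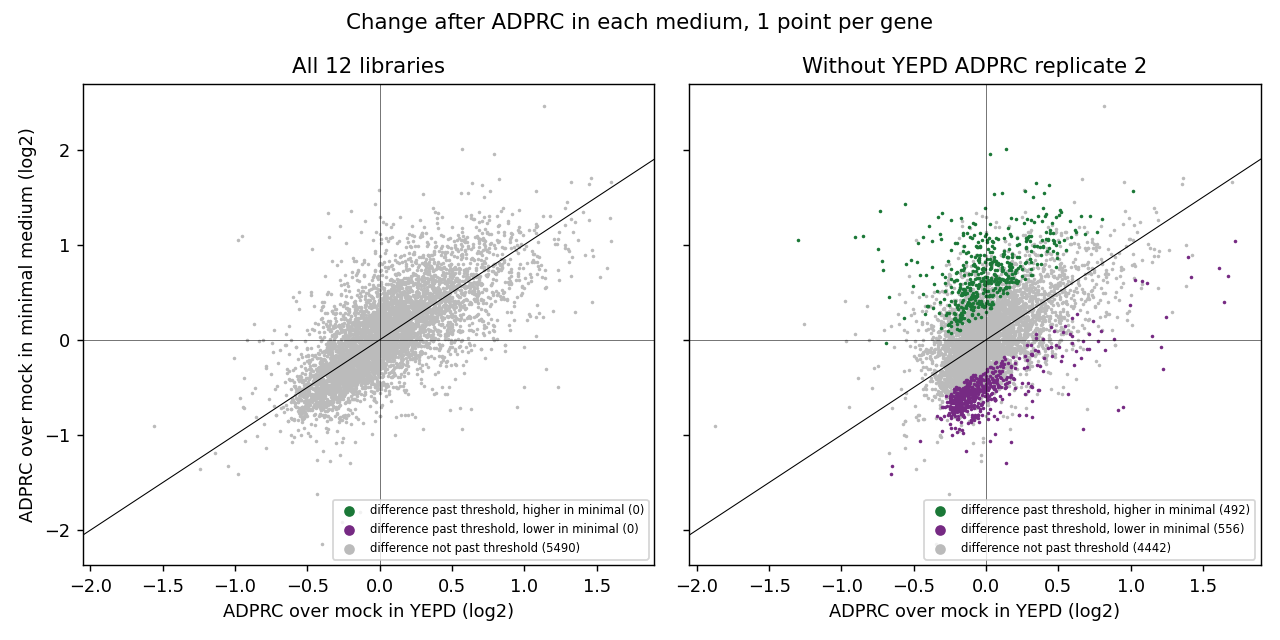
Change after ADPRC in YEPD (horizontal, log2) and in minimal medium (vertical, log2) for each of the 5490 genes, with the line of equal change. With all 12 libraries (left) 0 genes were past the threshold for the difference, and without YEPD ADPRC replicate 2 (right) 492 lay above and 556 below the line past it.

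The changes themselves were called more often in minimal medium than in YEPD. With all 12 libraries, 780 genes rose (14.2%) and 803 fell (14.6%) after ADPRC in minimal medium, 28.8% in all, and 270 rose (4.92%) and 30 fell (0.546%) in YEPD, 5.46% in all. Without YEPD ADPRC replicate 2 the counts were 1311 (23.9%) and 1336 (24.3%) in minimal medium, or 48.2%, and 339 (6.17%) and 75 (1.37%) in YEPD, or 7.54%. The minimal libraries, and so the sizes of change in minimal medium, were the same in both fits. The further minimal calls came with the spread, which was estimated over all 4 groups together, YEPD included. Of the 492 genes with a higher change in minimal medium, 424 rose in minimal medium and were not called in YEPD, and 49 rose in both media. Of the 556 genes with a lower change, 481 fell in minimal medium and were not called in YEPD, 14 fell in both, 38 rose in YEPD and were not called in minimal medium, and 12 rose in both. A further 3 genes of each set were called in opposite directions in the 2 media. The changes over mean mock of the 3 minimal and the 3 YEPD libraries did not overlap for 1227 genes, 22.3% of those tested, beside 0% called with all 12 libraries and 19.1% without replicate 2.

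In 10 genes described first, all 3 YEPD libraries, replicate 2 included, lay on the same side of all 3 minimal libraries. They were picked after their values were seen, from the 13 genes with the lowest p on 12 libraries, so their statistics are descriptions. LOC1, ERP3, ILM1 and TAM41 were the ones with a higher change in minimal medium. LOC1 (YFR001W), a nuclear protein of messenger RNA localization and large-subunit assembly, had 114, 110.1 and 132 normalized counts in minimal ADPRC libraries, 54.2, 44.2 and 53.7 in minimal mock libraries, 87.5, 124 and 107 in YEPD ADPRC libraries and 99.1, 104 and 103 in YEPD mock libraries. All 3 minimal ADPRC libraries were above all 3 minimal mock libraries by a wide margin, while YEPD ADPRC and YEPD mock libraries overlapped. The change was 1.22 ± 0.14 in minimal medium (adjusted p = 0.000723) and 0.04 ± 0.14 in YEPD (adjusted p = 0.87). The difference was 1.17 ± 0.21 with all 12 libraries (standard error, SE; adjusted p = 0.159) and 1.29 ± 0.20 without YEPD ADPRC replicate 2 (adjusted p = 0.000103).

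ERP3 (YDL018C), a p24 protein of vesicle transport between endoplasmic reticulum and Golgi, had 72.4, 66.6 and 69.2 normalized counts in minimal ADPRC libraries, 32.5, 31.4 and 34.0 in minimal mock libraries, 41.4, 48.7 and 46.4 in YEPD ADPRC libraries and 41.2, 43.1 and 45.2 in YEPD mock libraries. All minimal ADPRC libraries were higher than all minimal mock libraries, and the YEPD groups overlapped. The difference was 0.99 ± 0.20 (adjusted p = 0.197) with 12 and 1.04 ± 0.25 (adjusted p = 0.00439) with 11 libraries. ILM1 (YJR118C), a gene named for loss of mitochondrial DNA in its absence, had changes over mean mock of 1.01, 0.90 and 0.89 in minimal medium and -0.11, 0.22 and -0.21 in YEPD. Its difference was 0.97 ± 0.20 (adjusted p = 0.197) and 1.09 ± 0.21 without replicate 2 (adjusted p = 0.00061). TAM41 (YGR046W), which makes CDP-diacylglycerol for cardiolipin in mitochondria, had changes above 0 in all minimal and below 0 in all YEPD libraries, namely 0.44, 0.52 and 0.49 in minimal medium and -0.57, -0.22 and -0.29 in YEPD. Its difference was 0.85 ± 0.18 (adjusted p = 0.197) and 0.92 ± 0.20 without replicate 2 (adjusted p = 0.00178).

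SOL3 and SIS2 were lower after ADPRC in minimal medium and near mock in YEPD. SOL3 (YHR163W), a 6-phosphogluconolactonase of the pentose phosphate pathway, had 216, 273 and 229.8 normalized counts in minimal ADPRC libraries, 427, 398 and 417 in minimal mock libraries, 237, 231 and 288 in YEPD ADPRC libraries and 229, 205 and 235 in YEPD mock libraries. The minimal ADPRC libraries were all below the minimal mock libraries, and the YEPD ADPRC libraries overlapped the YEPD mock libraries. The change was -0.79 ± 0.12 in minimal medium (adjusted p = 0.00127) and 0.17 ± 0.12 in YEPD (adjusted p = 0.346). The difference of -0.96 ± 0.17 had the lowest p of all tested genes on 12 libraries (unadjusted p = 5.29e-05, adjusted p = 0.159), and it was -1.02 ± 0.14 without replicate 2 (adjusted p = 2.47e-05). SIS2 (YKR072C), an inhibitor of the phosphatase Ppz1 and a part of the coenzyme A pathway, had changes of -0.58, -0.68 and -0.51 in minimal medium and 0.08, -0.07 and 0.12 in YEPD. Its difference was -0.63 ± 0.14 (adjusted p = 0.281) and -0.69 ± 0.12 without replicate 2 (adjusted p = 0.00028).

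GCV3, IMG1, RSM19 and MRPS12 had the higher change in YEPD. GCV3 (YAL044C), the H subunit of glycine decarboxylase, had 236, 210.0 and 256 normalized counts in minimal ADPRC libraries, 277, 232 and 294 in minimal mock libraries, 411, 471 and 397 in YEPD ADPRC libraries and 266, 267 and 238 in YEPD mock libraries. The YEPD ADPRC libraries were all above the YEPD mock libraries, and the minimal groups overlapped. Its change was -0.19 ± 0.12 in minimal medium (adjusted p = 0.238) and 0.73 ± 0.12 in YEPD (adjusted p = 0.0029), and the difference was -0.92 ± 0.17 (adjusted p = 0.172) and -0.84 ± 0.14 without replicate 2 (adjusted p = 0.000222).

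IMG1 (YCR046C), a protein of the large mitochondrial ribosomal subunit, had 121, 115 and 111 normalized counts in minimal ADPRC libraries, 119, 113 and 111 in minimal mock libraries, 156, 143 and 179 in YEPD ADPRC libraries and 88.9, 85.3 and 95.6 in YEPD mock libraries. Minimal ADPRC and minimal mock values were nearly the same, and all YEPD ADPRC values were above all YEPD mock values. The difference was -0.80 ± 0.16 (adjusted p = 0.197) and -0.87 ± 0.17 without replicate 2 (adjusted p = 0.000904). RSM19 (YNR037C) and MRPS12 (YNR036C), which encode proteins of the small mitochondrial subunit, are next to each other in the RefSeq gene order (assembly R64). RSM19 had 47.9, 57.0 and 46.3 normalized counts in minimal ADPRC libraries, 48.8, 45.6 and 51.9 in minimal mock libraries, 55.8, 48.0 and 55.4 in YEPD ADPRC libraries and 25.3, 25.1 and 23.2 in YEPD mock libraries. Its YEPD ADPRC values were about as high as its minimal values, and its YEPD mock values were lower than both. The difference was -1.04 ± 0.21 (adjusted p = 0.197) and -1.11 ± 0.26 without replicate 2 (adjusted p = 0.00436). MRPS12 rose in both media, with changes over mean mock of 0.59, 0.65 and 0.74 in minimal medium and 1.51, 1.74 and 1.32 in YEPD. Its difference was -0.86 ± 0.20 (adjusted p = 0.281) and -0.75 ± 0.17 without replicate 2 (adjusted p = 0.00291). COQ10, a lipid-binding protein that coenzyme Q function needs, and PET117, an assembly factor of cytochrome oxidase, had the same order of media. The changes of COQ10 were 0.69, 0.68 and 0.90 in minimal medium and 1.69, 1.48 and 1.54 in YEPD, and those of PET117 0.15, 0.17 and 0.41 in minimal medium and 1.36, 0.91 and 1.12 in YEPD. Without replicate 2 their differences were -0.86 ± 0.27 (adjusted p = 0.0243) and -0.999 ± 0.34 (adjusted p = 0.0386), and with all 12 libraries -0.81 ± 0.24 and -0.89 ± 0.30 (adjusted p = 0.378 and 0.428).

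**Figure D2:**
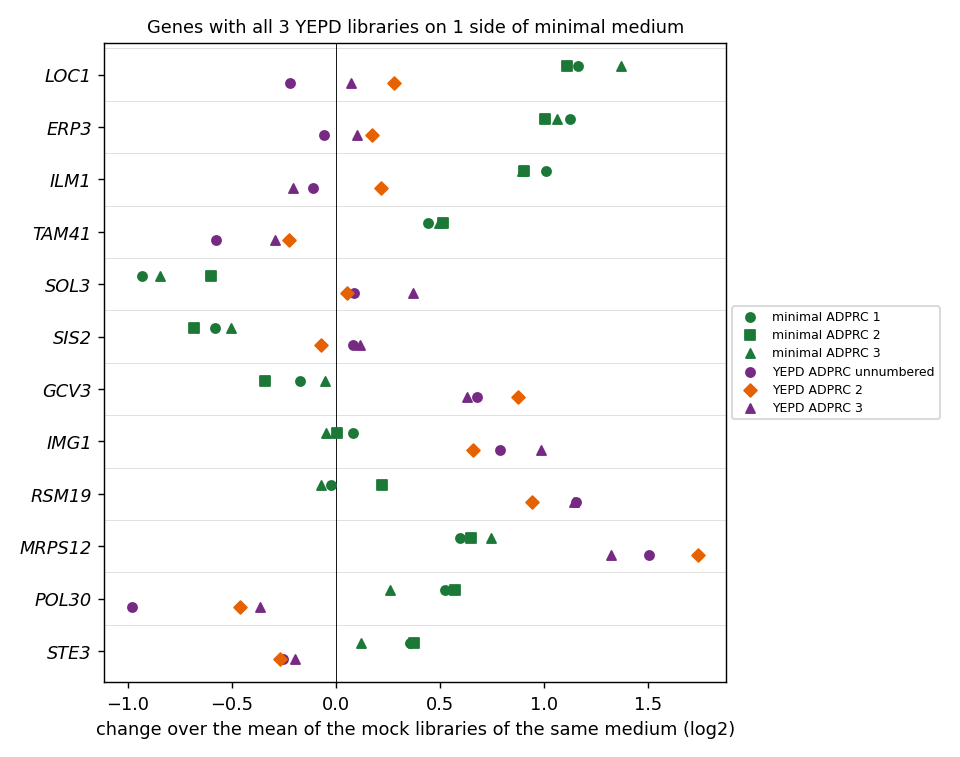
Change over the mean of the mock libraries of the same medium (horizontal, log2), 1 point per ADPRC library, with minimal libraries (green) above YEPD libraries (purple, replicate 2 orange) in each gene's row. In all 12 genes shown the 3 green points lie on 1 side of the YEPD points, orange included.

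For a second set of genes, YEPD ADPRC replicate 2 lay with the minimal libraries and away from the other YEPD ADPRC libraries. Leaving out such a library widens their difference between media and narrows its spread. The choice to leave it out was made with earlier results of these data known, and the genes were picked after their values were seen. Their adjusted p-values without it, here and below, are therefore descriptions. RPS20 (YHL015W), a protein of the small cytosolic ribosomal subunit, had the lowest p of all genes without YEPD ADPRC replicate 2. It had 14449, 16068 and 13237 normalized counts in minimal ADPRC libraries, 3766, 3478 and 4029.5 in minimal mock libraries, 4248, 20589 and 4166 in YEPD ADPRC libraries and 4265, 4065 and 4039.7 in YEPD mock libraries. Minimal ADPRC libraries were over 3 times as high as minimal mock libraries, YEPD ADPRC replicate 2 was higher still, and the other YEPD ADPRC libraries lay among the YEPD mock libraries. The changes over mean mock were 1.95, 2.10 and 1.82 in minimal medium and 0.04, 2.32 and 0.02 in YEPD. The difference was 1.16 ± 0.61 with all 12 libraries (adjusted p = 0.646) and 1.92 ± 0.10 without replicate 2 (adjusted p = 1.08e-12).

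HSP42 (YDR171W), a small heat shock protein, had 3855, 4206 and 3689.6 normalized counts in minimal ADPRC libraries, 2016, 1789 and 1924 in minimal mock libraries, 1985, 4973 and 1729 in YEPD ADPRC libraries and 1729, 1832 and 1845 in YEPD mock libraries. YEPD ADPRC replicate 2 was the highest of the 12 libraries, and the other YEPD ADPRC libraries lay near YEPD mock. The difference was 0.52 ± 0.39 (adjusted p = 0.795) with 12 and 0.99 ± 0.10 (adjusted p = 7.69e-07) with 11 libraries. ERG6 (YML008C), the sterol methyltransferase of ergosterol synthesis, had 1747, 1819 and 1609 normalized counts in minimal ADPRC libraries, 869.7, 877 and 863 in minimal mock libraries, 1048, 2443 and 1217 in YEPD ADPRC libraries and 1159.8, 1232 and 1104 in YEPD mock libraries. Again replicate 2 was the highest library, and the others of its group lay within or just below the YEPD mock range. The difference was 0.66 ± 0.31 (adjusted p = 0.594) and 1.03 ± 0.10 without replicate 2 (adjusted p = 6.06e-07). GIS2 (YNL255C), a zinc-finger protein that binds messenger RNAs under translation, had changes of 1.21, 1.33 and 1.30 in minimal medium and 0.27, 1.55 and 0.08 in YEPD and differences of 0.65 ± 0.37 with 12 libraries (adjusted p = 0.69) and 1.11 ± 0.11 with 11 (adjusted p = 5.8e-07).

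**Figure D3:**
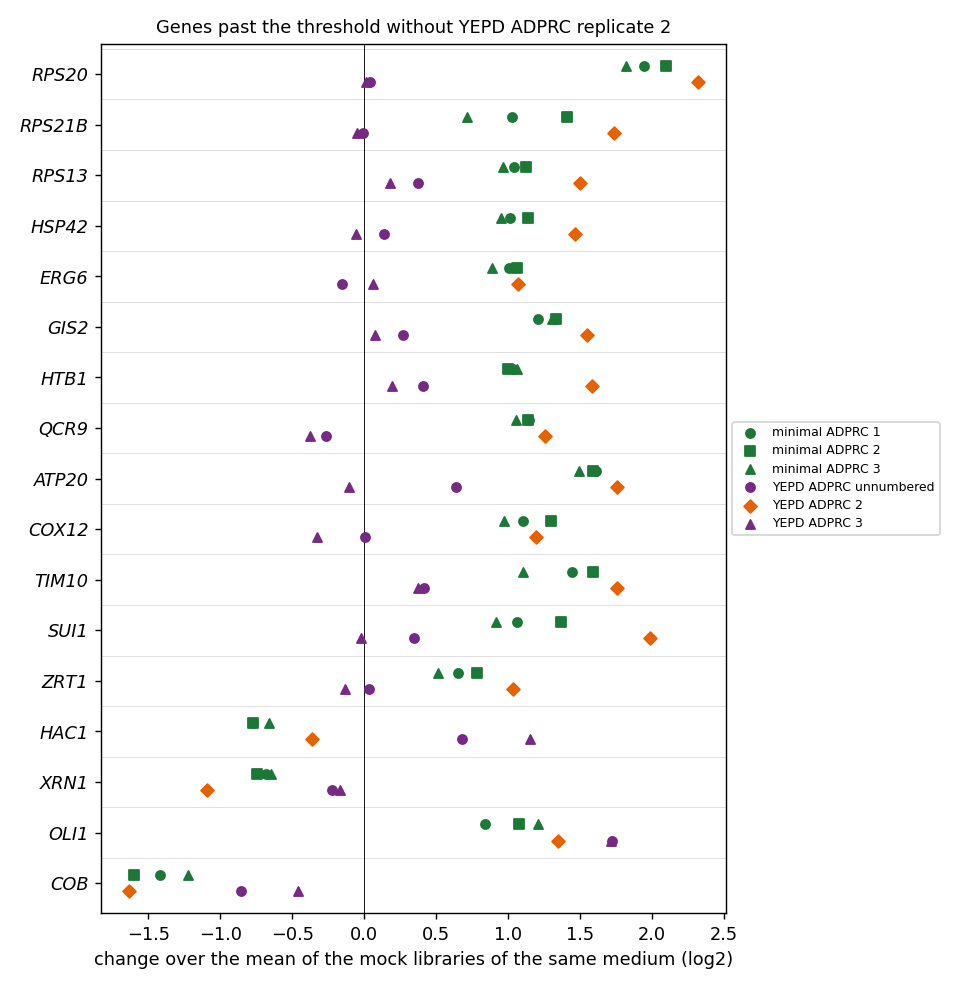
Change over the mean of the mock libraries of the same medium (horizontal, log2), 1 point per ADPRC library, for genes past the threshold without YEPD ADPRC replicate 2. In most rows that library (orange) lies near or beyond the minimal libraries (green) and away from the other YEPD libraries (purple), as in RPS20 and COB, and in OLI1 and HAC1 it lies between them.

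Proteins of the cytosolic ribosome gave the most calls of the 34 lists. Without YEPD ADPRC replicate 2, 59 of 139 tested genes had a higher change in minimal medium (42.4%, against 8.96% of all genes) and 3 a lower one. Their median difference was 0.30, and with all 12 libraries it was -0.02 with 0 calls. Over the group the median change was 0.55, 0.64 and 0.57 in minimal medium and 0.28, 1.09 and 0.20 in YEPD, so replicate 2 was the highest library. Over all genes, the unnumbered YEPD library and replicate 3 followed the minimal change with slopes of only 0.319 and 0.224. A group that changed in minimal medium would thus tend to differ without replicate 2. Whether this group, or those below, differed beyond that general relation was not tested. RPS21B (YJL136C), of the small subunit, had 1673, 2183 and 1347 normalized counts in minimal ADPRC libraries, 786, 804 and 874 in minimal mock libraries, 843, 2839 and 820.0 in YEPD ADPRC libraries and 879, 812 and 858 in YEPD mock libraries, and its difference was 0.49 ± 0.49 (adjusted p = 0.863) with 12 and 1.08 ± 0.20 (adjusted p = 0.00291) with 11 libraries. RPS13 (YDR064W), also of the small subunit, rose after ADPRC in both media without replicate 2, by 1.04 ± 0.06 in minimal medium (adjusted p = 3.36e-12) and 0.28 ± 0.07 in YEPD (adjusted p = 0.0152), with a difference of 0.76 ± 0.10 (adjusted p = 1.21e-05), against 0.36 ± 0.34 with all 12 libraries (adjusted p = 0.858). RPS21B has a near-identical paralog, RPS21A, as have the histone gene HTB1 and the glycolytic gene TDH3 below, and how reads of such pairs were counted is not given in the sources used here.

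Nuclear-encoded subunits of the respiratory chain and ATP synthase gave 12 higher calls and 1 lower call among 42 tested genes without replicate 2 (28.6% and 2.38%, against 8.96% and 10.1% of all genes). Their median difference was 0.27, and 0.15 with 0 calls on 12 libraries. With the trend over gene length taken out of the 11 libraries, 6 higher and 2 lower calls and a median of 0.08 were left. That setting left 273 higher and 263 lower calls over all 5423 genes with a length. QCR9 (YGR183C), a small subunit of the cytochrome bc1 complex, had 86.8, 86.4 and 81.5 normalized counts in minimal ADPRC libraries, 38.0, 42.8 and 35.8 in minimal mock libraries, 31.7, 93.1 and 29.4 in YEPD ADPRC libraries and 42.1, 40.1 and 33.6 in YEPD mock libraries. YEPD ADPRC replicate 2 was the highest of the 12 libraries, and the other YEPD ADPRC libraries were below every YEPD mock library. The difference was 0.91 ± 0.45 (adjusted p = 0.625) and 1.43 ± 0.26 without replicate 2 (adjusted p = 0.000383). ATP20, subunit g of ATP synthase, had changes of 1.61, 1.59 and 1.49 in minimal medium and 0.64, 1.76 and -0.11 in YEPD, and a difference of 1.30 ± 0.24 without replicate 2 (adjusted p = 0.000527) and 0.80 ± 0.45 with it (adjusted p = 0.676). COX12, subunit VIb of cytochrome oxidase, differed by 1.29 ± 0.28 (adjusted p = 0.00181), and SDH4, the membrane anchor of succinate dehydrogenase, by 0.91 ± 0.13 (adjusted p = 3.37e-05), both without replicate 2. COX12 differed by 0.84 ± 0.44 (adjusted p = 0.646) and SDH4 by 0.55 with all 12 libraries.

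Mitochondrial import proteins of the TIM and TOM complexes gave 8 higher and 0 lower calls among 23 genes without replicate 2 (34.8% and 0%, against 8.96% and 10.1% of all genes), with a median of 0.33. The median with 12 libraries was 0.12, with 0 calls. TIM10, a chaperone of the intermembrane space, had changes over mean mock of 1.45, 1.59 and 1.10 in minimal medium and 0.42, 1.76 and 0.37 in YEPD, and its difference was 0.99 ± 0.21 without replicate 2 (adjusted p = 0.00384). TIM8, another such chaperone, differed by 1.05 ± 0.28 (adjusted p = 0.0109). The 12 libraries together gave 0.53 ± 0.41 for TIM10 and 0.48 ± 0.51 for TIM8 (adjusted p = 0.809 and 0.871). Once the trend with gene length was taken out of each library, the import group had 1 higher and 0 lower calls among 23. Over all 5423 genes with a length, 273 were called higher and 263 lower in that setting. Neither TIM10 nor TIM8 was past the threshold there. Proteasome subunits gave 8 higher calls and 1 lower call among 33 (24.2% and 3.03%, against 8.96% and 10.1% of all genes), with a median of 0.21, and 0.07 with 0 calls on 12 libraries. With the length trend taken out of the 11 libraries these became 5 higher and 0 lower calls and a median of 0.09. Among them, SEM1, a small lid subunit, had changes of 1.35, 1.36 and 1.22 in minimal medium and 0.55, 0.88 and 0.46 in YEPD, so all 6 were above 0 and replicate 2 lay between the media. Its difference was 0.80 ± 0.17 without replicate 2 (adjusted p = 0.00166) and 0.68 ± 0.19 with it (adjusted p = 0.378). RPN11, the deubiquitinase of the lid, differed by 0.88 ± 0.12 (adjusted p = 2.65e-05) without replicate 2 and by 0.61 ± 0.24 (adjusted p = 0.485) with it.

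Histone genes gave 3 higher and 0 lower calls among 10 without replicate 2 (30.0% and 0%, against 8.96% and 10.1% of all genes), with a median of 0.22, whereas with 12 libraries the median was -0.21 and there were 0 calls. Their median change was 0.34, 0.57 and 0.35 in minimal medium and 0.31, 1.18 and 0.17 in YEPD. HTB1, a histone H2B gene, had the highest mean of the group, with 2587, 2519.6 and 2634 normalized counts in minimal ADPRC libraries, 1228, 1176 and 1382 in minimal mock libraries, 1543, 3475 and 1325 in YEPD ADPRC libraries and 1132, 1131 and 1220.4 in YEPD mock libraries. Replicate 2 was again the highest of the 12 libraries, and the difference was 0.73 ± 0.11 without it (adjusted p = 3.27e-05) and 0.31 ± 0.36 with it (adjusted p = 0.887). The histone median became -0.04 on 11 libraries once the length trend was taken out, with 2 higher and 2 lower calls. Translation factors gave 10 higher and 3 lower calls among 38 (26.3% and 7.89%, against 8.96% and 10.1% of all genes). Their medians were 0.05 and -0.01 without and with replicate 2, and the length trend taken out left 6 higher and 2 lower calls. The higher calls held TEF1 and TEF2, both 1377 bases long, with means of 68300 and 68508 and differences of 0.416 and 0.421 without replicate 2. How reads of this pair were counted is not given, so they may hold the same signal. SUI1, the initiation factor eIF1, had changes of 1.06, 1.37 and 0.92 in minimal medium and 0.35, 1.99 and -0.02 in YEPD and a difference of 0.95 ± 0.18 without replicate 2 (adjusted p = 0.00144) and 0.34 ± 0.50 with it (adjusted p = 0.917). Mitochondrial ribosomal proteins gave 7 higher and 3 lower calls among 72 (9.72% and 4.17%, against 8.96% and 10.1% of all genes), with medians of 0.12 without and 0.05 with replicate 2, and -0.04 without it once the length trend was taken out, when 1 was higher and 3 were lower. The 3 lower ones were IMG1, RSM19 and MRPS12, described above. Ribosome biogenesis factors gave 3 higher and 9 lower calls among 49 (6.12% and 18.4%, against 8.96% and 10.1% of all genes), with a median of -0.03. There were 23 higher and 0 lower calls with the same total per library, and 3 higher and 4 lower ones with the length trend taken out. Over all genes these settings gave 1689 higher and 29 lower calls of 5490, and 273 and 263 of 5423. Heat shock proteins and chaperones gave 6 higher and 2 lower calls among 27 (22.2% and 7.41%), HSP42 the highest, and 6 higher and 4 lower ones with the length trend taken out.

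**Figure D4:**
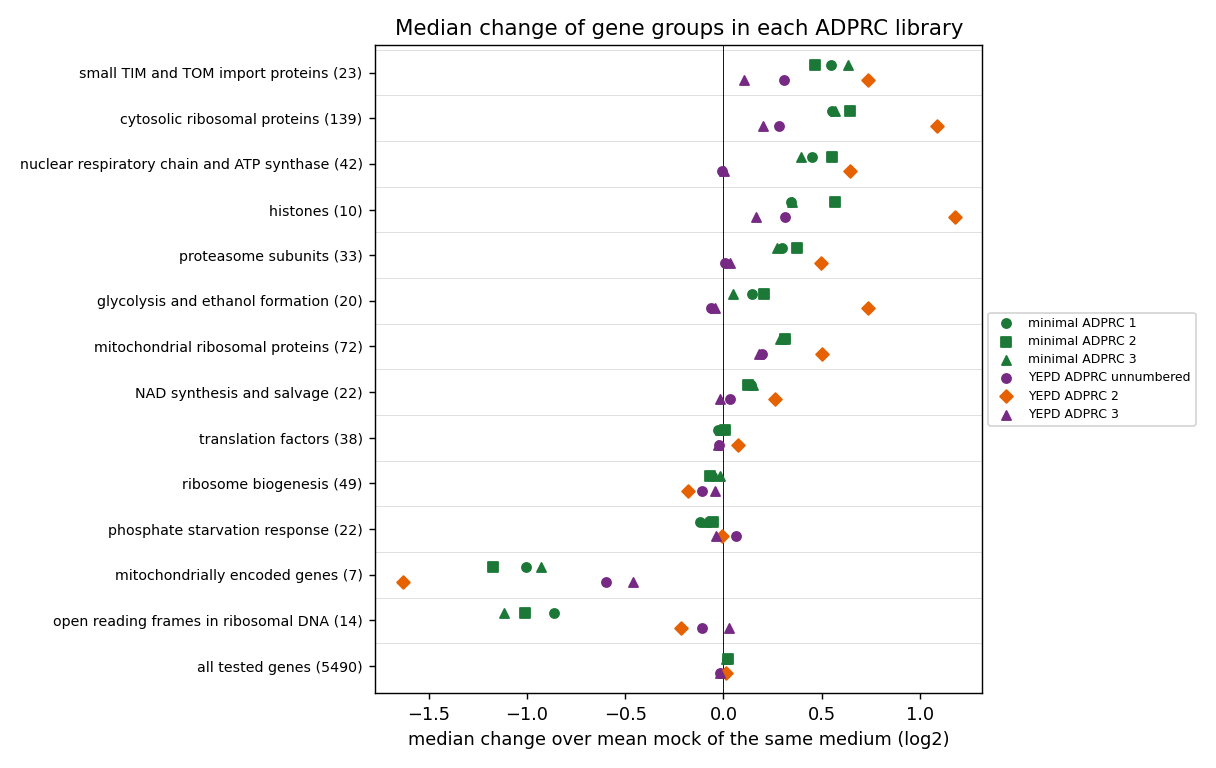
Median change over mean mock (horizontal, log2) of gene groups, with the number of tested genes in brackets, 1 point per ADPRC library, minimal libraries (green) above YEPD libraries (purple, replicate 2 orange). For cytosolic ribosomal proteins the minimal medians lie at 0.55 to 0.64, replicate 2 of YEPD at 1.09 and the other YEPD libraries at 0.20 and 0.28.

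Glycolysis and ethanol formation gave 6 higher and 2 lower calls among 20 without replicate 2 (30.0% and 10%, against 8.96% and 10.1% of all genes). Its median was 0.14 there, -0.11 after quantile normalization of the same libraries, and -0.15 with all 12 libraries. TDH3, a glyceraldehyde-3-phosphate dehydrogenase with the highest mean of the group, had changes of 0.30, 0.54 and 0.02 in minimal medium and -0.09, 1.31 and -0.06 in YEPD, and its difference was past the threshold in neither fit (-0.10 ± 0.42, adjusted p = 0.976, with 12, and 0.36 ± 0.13, adjusted p = 0.0604, with 11 libraries). GLK1, glucokinase, went the other way, with 1069, 1044 and 1109 normalized counts in minimal ADPRC libraries, 1201, 1170.2 and 1203 in minimal mock libraries, 908, 771 and 921 in YEPD ADPRC libraries and 726, 674 and 806 in YEPD mock libraries. All minimal ADPRC libraries were below all minimal mock libraries, and YEPD ADPRC libraries overlapped YEPD mock only through replicate 2. The difference was -0.47 ± 0.10 without replicate 2 (adjusted p = 0.00213) and -0.39 ± 0.14 with it (adjusted p = 0.443). GLK1 overlaps YCL042W in RefSeq, and reads of such pairs cannot be told apart without knowing how strand was used in counting.

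Minimal medium was supplied with an amino acid mixture. Of the genes of amino acid synthesis without replicate 2, against shares of 8.96% higher and 10.1% lower over all genes, arginine synthesis gave 2 higher and 0 lower of 9 (22.2% and 0%), lysine synthesis 0 and 0 of 7, and the branched-chain pathways 2 and 1 of 12 (16.7% and 8.33%). Histidine and aromatic synthesis gave 2 and 1 of 20 (10% and 5%), and sulfate assimilation with methionine 2 and 1 of 29 (6.90% and 3.45%). ILV5, acetohydroxyacid reductoisomerase, differed by 0.70 ± 0.10 (adjusted p = 1.83e-05), and ARO4, a DAHP synthase, by 0.84 ± 0.11 (adjusted p = 1.29e-05). MET14, the adenylylsulfate kinase, differed by 1.08 ± 0.25 (adjusted p = 0.00296). ARO1, the long multifunctional enzyme of the aromatic pathway, had a lower change in minimal medium, with a difference of -0.54 ± 0.10 (adjusted p = 0.00034). These differences were 0.29, 0.44, 0.70 and -0.33 on 12 libraries, with 0 calls in any of the 5 groups. The thiamine genes gave 0 higher and 0 lower calls among 20.

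Among transporters of nutrients, the phosphate starvation genes gave 2 higher and 6 lower calls among 22 without replicate 2 (9.09% and 27.3%, against 8.96% and 10.1% of all genes). Their median difference was -0.04. There were 7 higher and 0 lower ones with the same total per library, and 0 higher and 2 lower ones with the length trend taken out. All tested genes gave 1689 higher and 29 lower calls of 5490, and 273 and 263 of 5423, in these settings. PHO84, the high-affinity phosphate transporter, had 259, 245 and 269 normalized counts in minimal ADPRC libraries, 445, 409 and 433 in minimal mock libraries, 2537, 1704 and 2580.0 in YEPD ADPRC libraries and 2817, 2665 and 3071 in YEPD mock libraries. In both media all ADPRC libraries were below all mock libraries, and in YEPD replicate 2 was the lowest by far. The change was -0.73 ± 0.14 in minimal medium (adjusted p = 0.00431) and -0.35 ± 0.14 in YEPD (adjusted p = 0.13). The difference was -0.58 ± 0.10 without replicate 2 (adjusted p = 0.000349) and -0.38 ± 0.20 with it (adjusted p = 0.645). PHO84 overlaps YNCM0001W, an antisense RNA gene, in RefSeq, with the same limit as for GLK1. Iron uptake gave 1 higher and 3 lower calls among 26 (3.85% and 11.5%). FTR1, the high-affinity iron permease, had 802, 693 and 880.2 normalized counts in minimal ADPRC libraries, 805, 785 and 791 in minimal mock libraries, 442, 352 and 443 in YEPD ADPRC libraries and 279.7, 236 and 325 in YEPD mock libraries. Minimal ADPRC and mock values overlapped, and all YEPD ADPRC values were above all YEPD mock values, with a difference of -0.68 ± 0.14 without replicate 2 (adjusted p = 0.00144) and -0.57 ± 0.19 with it (adjusted p = 0.421). SMF3, an iron transporter of the vacuole, had changes of 0.01, -0.23 and 0.19 in minimal medium and 0.79, -0.44 and 0.76 in YEPD, so replicate 2 was of the opposite sign to the other YEPD libraries. Its difference was -0.79 ± 0.17 without replicate 2 (adjusted p = 0.00267) and -0.38 ± 0.37 with it (adjusted p = 0.858). ZRT1, the high-affinity zinc transporter, had 3838, 4200.4 and 3479.6 normalized counts in minimal ADPRC libraries, 2405, 2452 and 2469 in minimal mock libraries, 86.6, 174 and 76.9 in YEPD ADPRC libraries and 84.2, 89.3 and 80.1 in YEPD mock libraries, and its difference was 0.70 ± 0.11 without replicate 2 (adjusted p = 0.00013) and 0.34 ± 0.31 with it (adjusted p = 0.848).

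Genes of NAD synthesis and salvage gave 4 higher and 2 lower calls among 22 without replicate 2 (18.2% and 9.09%, against 8.96% and 10.1% of all genes), and 0 with it, with medians of 0.14 and 0.15. BNA1, a dioxygenase of synthesis from tryptophan, had 122, 129 and 110.0 normalized counts in minimal ADPRC libraries, 65.1, 71.3 and 69.8 in minimal mock libraries, 76.0, 139 and 64.5 in YEPD ADPRC libraries and 72.0, 66.2 and 58.1 in YEPD mock libraries. Its minimal ADPRC libraries were all above minimal mock, and in YEPD replicate 2 was far above mock while the other ADPRC libraries lay within or close to the mock range. The difference was 0.69 ± 0.21 without replicate 2 (adjusted p = 0.0193) and 0.37 ± 0.31 with it (adjusted p = 0.83). PNP1, a phosphorylase that salvages nicotinamide riboside, differed by 0.80 ± 0.18 (adjusted p = 0.00316), and POS5, the mitochondrial NADH kinase, by 0.72 ± 0.21 (adjusted p = 0.016). The 2 genes called lower were NPT1, which starts salvage from nicotinic acid (-0.60 ± 0.14, adjusted p = 0.0045), and QNS1, the NAD synthetase (-0.66 ± 0.15, adjusted p = 0.00545), all without replicate 2. On 12 libraries the differences were 0.58 ± 0.25 for PNP1, 0.52 ± 0.26 for POS5, -0.41 for NPT1 and -0.44 for QNS1.

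Of 21 genes of decapping, NAD-cap removal and decay from the 5′ end, 0 were past the threshold by limma with all 12 libraries, as were 0% of all genes. At an unadjusted p under 0.05 there were 2 higher and 1 lower, against 4.08% and 4.34% of all genes. Without replicate 2, 1 was called higher and 1 lower (4.76% each, against 8.96% and 10.1% of all genes). LSM2, a subunit of the Lsm ring that helps decapping, had the higher change in minimal medium (1.22 ± 0.31, adjusted p = 0.00724) and XRN1, the cytoplasmic exonuclease, the lower one (-0.49 ± 0.10, adjusted p = 0.000895). They differed on 12 libraries by 1.003 ± 0.34 and -0.20 ± 0.26 (adjusted p = 0.428 and 0.909). XRN1 had 1324, 1265 and 1355 normalized counts in minimal ADPRC libraries, 2009, 2299 and 2062 in minimal mock libraries, 2108, 1156 and 2192 in YEPD ADPRC libraries and 2529, 2473 and 2385 in YEPD mock libraries. The minimal ADPRC libraries and YEPD ADPRC replicate 2 were all below the other 8 libraries. RAI1, with changes of 0.19, 0.24 and 0.27 in minimal medium and -0.24, -0.39 and -0.31 in YEPD, differed by 0.54 ± 0.23 (adjusted p = 0.553) with 12 and 0.50 ± 0.24 (adjusted p = 0.148) with 11 libraries. NPY1, an NADH pyrophosphatase, differed by 0.33 ± 0.18 (adjusted p = 0.649) and 0.37 ± 0.17 (adjusted p = 0.12). DXO1 differed by 0.15 ± 0.33 and RAT1, the nuclear exonuclease, by -0.08 ± 0.11 without replicate 2 (adjusted p = 0.792 and 0.663). Both were close to 0 on 12 libraries, at 0.06 ± 0.35 and -0.0025 ± 0.15 (adjusted p = 0.981 and 0.996). These levels are of the messenger RNAs in capture and do not measure the enzymes.

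Without replicate 2 all 7 mitochondrially encoded RNAs were called in both media, OLI1 and COX2 higher and the others lower after ADPRC. COX3, COX1 and ATP6 were not called in YEPD with all 12 libraries. OLI1 (Q0130), which encodes subunit 9 of ATP synthase, had 791, 927 and 1019 normalized counts in minimal ADPRC libraries, 407, 409 and 512 in minimal mock libraries, 1241, 958 and 1235 in YEPD ADPRC libraries and 334, 359 and 440.4 in YEPD mock libraries. All ADPRC libraries were above all mock libraries of their medium, and the 3 changes in minimal medium were below the 3 in YEPD (0.84, 1.07 and 1.21 in minimal medium and 1.72, 1.35 and 1.72 in YEPD). The difference was -0.55 ± 0.21 with all 12 libraries (adjusted p = 0.446) and -0.68 ± 0.17 without replicate 2 (adjusted p = 0.00895). COX2 (Q0250), for subunit II of cytochrome oxidase, had changes of 1.63, 1.65 and 1.69 in minimal medium and 1.59, 1.40 and 1.80 in YEPD, and these overlapped between the media. Its difference was 0.06 ± 0.24 and -0.04 ± 0.24 with and without replicate 2 (adjusted p = 0.976 and 0.923).

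COB (Q0105), for cytochrome b, fell in both media, with 43.7, 38.4 and 50.04 normalized counts in minimal ADPRC libraries, 118, 94.1 and 150.4 in minimal mock libraries, 77.9, 45.1 and 103 in YEPD ADPRC libraries and 161, 116 and 152 in YEPD mock libraries. YEPD ADPRC replicate 2 was as low as the minimal ADPRC libraries, and the difference was -0.43 ± 0.36 (adjusted p = 0.83) with it and -0.76 ± 0.25 (adjusted p = 0.0317) without it. SCEI (Q0160), the endonuclease frame in the intron of the large mitochondrial ribosomal RNA, differed by -0.27 ± 0.37 (adjusted p = 0.91) and -0.68 ± 0.21 (adjusted p = 0.0268), and COX3 (Q0275), for subunit III of cytochrome oxidase, by -0.14 ± 0.41 (adjusted p = 0.962) and -0.61 ± 0.18 (adjusted p = 0.0166). COX1 (Q0045), for subunit I, and ATP6 (Q0085), for subunit 6 of ATP synthase, were past the threshold in neither fit, with -0.33 ± 0.19 (adjusted p = 0.235) and -0.52 ± 0.26 (adjusted p = 0.176) without replicate 2 and 0.04 ± 0.35 and -0.05 ± 0.44 with it (adjusted p = 0.992 and 0.991). The group thus gave 0 higher and 4 lower calls among 7 tested genes without replicate 2 (0% and 57.1%, against 8.96% and 10.1% of all genes), with a median of -0.61. Scaled to the same total, the 11 libraries gave 0 higher and 0 lower calls and a median of -0.25. That scaling gave 1689 higher and 29 lower calls over all 5490 genes, with a median of 0.36. On 12 libraries the median of the mitochondrial group was -0.14, and 0.10 when they were scaled to the same total. The frames of COB, COX1, COX2 and SCEI overlap other annotated genes in RefSeq, so their reads may be shared.

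Without YEPD ADPRC replicate 2, 6 genes were called in opposite directions in the 2 media, and with all 12 libraries 0 were. HAC1 (YFL031W), the transcription factor of the unfolded protein response, had the lowest difference of the called genes that RefSeq names outside the ribosomal DNA. It had 1613, 1613 and 1744 normalized counts in minimal ADPRC libraries, 2799, 2422 and 3075 in minimal mock libraries, 3678, 1785 and 5096 in YEPD ADPRC libraries and 2246, 2275 and 2366 in YEPD mock libraries. All minimal ADPRC libraries were below all minimal mock libraries, the unnumbered YEPD library and replicate 3 were above all YEPD mock libraries, and replicate 2 was below them. Without replicate 2 the change was -0.73 ± 0.10 in minimal medium (adjusted p = 8.22e-06) and 0.92 ± 0.11 in YEPD (adjusted p = 2.3e-05). The difference was -1.65 ± 0.15 without replicate 2 (adjusted p = 2.62e-06) and -1.22 ± 0.37 with it (adjusted p = 0.378). QDR2, a drug and cation exporter of the plasma membrane, and SSC1, the mitochondrial Hsp70, had the same directions without replicate 2. QDR2 had changes of -0.42, -0.30 and -0.27 in minimal medium and 0.29, 0.08 and 0.49 in YEPD, with a difference of -0.72 ± 0.12 (adjusted p = 0.000117) without and -0.62 ± 0.15 (adjusted p = 0.335) with replicate 2. SSC1 had changes of -0.13, -0.27 and -0.09 in minimal medium and 0.25, 0.18 and 0.39 in YEPD, and its difference without replicate 2 was -0.48 ± 0.10 (adjusted p = 0.00165), against -0.44 ± 0.17 with it (adjusted p = 0.45).

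POL30, FCY2 and HNT3 rose after ADPRC in minimal medium and fell in YEPD in the fit without replicate 2. POL30 (YBR088C), the sliding clamp of DNA replication, had 235, 243 and 196 normalized counts in minimal ADPRC libraries, 143, 182 and 166 in minimal mock libraries, 14.4, 21.1 and 22.6 in YEPD ADPRC libraries and 35.5, 24.1 and 29.7 in YEPD mock libraries. Minimal and YEPD changes did not overlap (0.53, 0.57 and 0.26 in minimal medium and -0.98, -0.46 and -0.36 in YEPD), and the difference was 1.12 ± 0.25 without replicate 2 (adjusted p = 0.0029) and 1.05 ± 0.27 with it (adjusted p = 0.354). FCY2, the purine and cytosine permease, had changes of 0.33, 0.47 and 0.31 in minimal medium and -0.29, 0.59 and -0.23 in YEPD, so replicate 2 was the highest of the 6, and its difference was 0.63 ± 0.10 without that library (adjusted p = 0.000106) and 0.35 ± 0.25 with it (adjusted p = 0.773). HNT3, a DNA repair hydrolase, had the highest difference of the called genes on few reads, with 19.7, 19.8 and 15.4 normalized counts in minimal ADPRC libraries, 9.04, 11.4 and 5.37 in minimal mock libraries, 7.70, 13.8 and 5.66 in YEPD ADPRC libraries and 11.2, 18.1 and 27.1 in YEPD mock libraries. Its difference was 2.35 ± 0.51 without replicate 2 (adjusted p = 0.00214) and 2.03 ± 0.53 with it (adjusted p = 0.358).

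The other genes with the highest and lowest differences past the threshold without replicate 2 were mostly of low level, TAF9 excepted. SHG1, a subunit of the histone methyltransferase complex COMPASS, differed by 2.08 ± 0.64 (adjusted p = 0.0221) on 19.7, 13.4 and 19.1 normalized counts in minimal ADPRC and 1.81, 9.98 and 10.7 in minimal mock libraries, and 8.66, 23.3 and 5.66 in YEPD ADPRC and 9.35, 17.1 and 11.6 in YEPD mock libraries. MIN6 differed by 1.98 ± 0.63 (adjusted p = 0.0264). MNC1 was at or under the floor of 3 reads in all YEPD libraries, and YHR213W was at or under it in all minimal libraries and at 0 in minimal mock, so their fitted differences of 1.99 ± 0.63 and 1.94 ± 0.62 (adjusted p = 0.0265 and 0.0277) depend on the pseudocount and are not folds. On 12 libraries the fitted differences were 1.55 ± 0.77 for SHG1, 1.46 ± 0.72 for MIN6, 1.43 ± 0.68 for MNC1 and 2.04 ± 0.45 for YHR213W. On the lower side, TAF9 (YMR236W), a subunit of the transcription complexes TFIID and SAGA, had 138, 129.98 and 192 normalized counts in minimal ADPRC libraries, 127, 99.8 and 119.9 in minimal mock libraries, 257, 169 and 235 in YEPD ADPRC libraries and 87.0, 59.2 and 91.7 in YEPD mock libraries. Without replicate 2 it rose in both media, and its changes of 0.27, 0.18 and 0.74 in minimal medium and 1.71, 1.11 and 1.58 in YEPD did not overlap. The difference was -1.25 ± 0.24 without replicate 2 (adjusted p = 0.000874) and -1.07 ± 0.29 with it (adjusted p = 0.358). CUE4, a protein with a ubiquitin-binding CUE domain, differed by -1.53 ± 0.46 (adjusted p = 0.0237), YLR112W by -1.28 ± 0.36 (adjusted p = 0.0143) and IRC13 by -1.60 ± 0.55 (adjusted p = 0.0414). These were -1.45 ± 0.47, -1.07 ± 0.36 and -1.50 ± 0.56 on 12 libraries. IRC13 overlaps SNR17A, a gene of the small nucleolar RNA U3, in RefSeq, and without the use of strand in counting being known their reads cannot be told apart. Of these 10 genes at the 2 ends, SHG1, MIN6, MNC1, YHR213W, CUE4, IRC13 and YLR112W lost the call when at least 1 of the further libraries was left out, and HNT3, HAC1 and TAF9 kept it each time.

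Of 75 named genes, 66 were called without replicate 2. Of these, 28 were called in every alternative setting on the 11 libraries and with every further library left out. All these settings leave out replicate 2, and many of the genes were picked because the 11 libraries called them. With all 12 libraries 0 genes were called, so the count does not cover dependence on replicate 2. Among these 28 were LOC1, ILM1, TAM41, SOL3, GCV3, RPS20, HSP42, ERG6, QCR9, HAC1 and TAF9. When libraries were scaled to the same total, SIS2, IMG1, RSM19, MRPS12, OLI1, COB, COX3, SCEI, COQ10, PET117, IRC13, YLR112W, GLK1, FTR1, SMF3, PHO84, QDR2, SSC1, XRN1, NPT1, QNS1 and ARO1 were no longer called, all of them genes with a lower change in minimal medium. ERP3 and MRPL51 lost the call with DESeq2 alone. BNA1, POS5, COB, COX3, SCEI, COQ10, PET117, IRC13, YLR112W, SHG1, MNC1, MIN6 and YHR213W lost it with DESeq2 and in other settings. With YEPD ADPRC replicate 3 also left out, the genes no longer called included RPL22A, POS5, BNA1, COX3, SCEI, COB, COQ10 and PET117. COB lost the call in 13 of the 25 settings.

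Gene length went along with the difference. It was taken from the start to the end of each gene in RefSeq, introns included, and 96.9% of these lengths were multiples of 3. Over the 5423 genes with a length, the difference without replicate 2 had a Pearson r of -0.42 with log2 gene length, and -0.17 with all 12 libraries (across genes, which are not independent replicates). In the shortest quintile (78 to 699 bases), 218 of 1091 genes had a higher change in minimal medium (20%) and 30 a lower one (2.75%). In the longest (2148 to 14733 bases), 2 of 1085 were higher (0.184%) and 345 lower (31.8%). The median change over mean mock in the shortest quintile was 0.46, 0.52 and 0.43 in the minimal ADPRC libraries and 0.20, 0.74 and 0.12 in the YEPD ADPRC libraries. For the longest quintile these medians were -0.41, -0.45 and -0.35 in minimal medium and -0.15, -0.64 and -0.11 in YEPD. The trend with length thus had the same direction in all 6 ADPRC libraries and was steepest in YEPD ADPRC replicate 2. With the trend taken out of each library, 273 higher and 263 lower calls were left on 11 libraries, and 436 of the 1041 called genes that had a length were still called. For cytosolic ribosomal proteins the count then became 37 higher and 11 lower, with a median of 0.14. Of the 139, 57 had a length that was no multiple of 3, as introns can give, and genes with introns are placed as longer than their coding sequence, so this count depends on the measure of length. Whether length itself or a property that goes with it sets the trend was not tested.

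**Figure D5:**
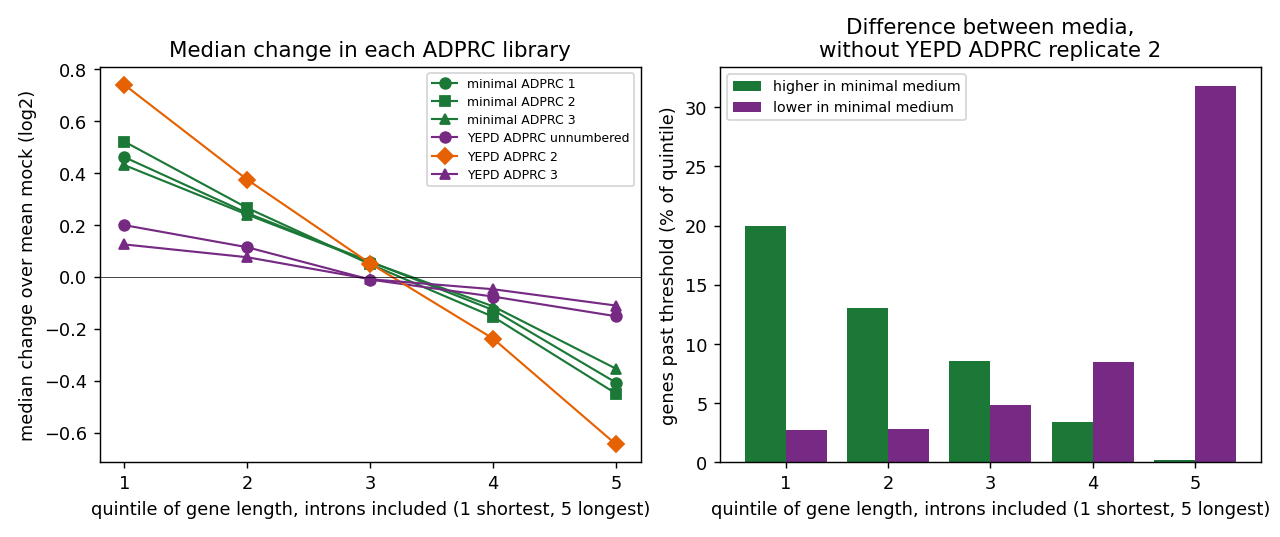
Left, median change over mean mock (log2) by quintile of gene length (introns included) for each ADPRC library, minimal in green and YEPD in purple with replicate 2 in orange. Right, share of each quintile past the threshold for the difference without YEPD ADPRC replicate 2, which runs from 20% higher and 2.75% lower in the shortest to 0.184% higher and 31.8% lower in the longest quintile.

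The list of frames in the ribosomal DNA also held RRT15, which overlaps no other gene in RefSeq and lies between YLR162W and MAS1. This list had the lowest median of the 34 lists in both fits, -0.96 with all 12 libraries and -1.10 without replicate 2. There were 0 and 6 lower calls among 14, the latter 42.9% against 10.1% of all genes. Among these calls were YLR156W, YLR159W and YLR161W, each 345 bases long, with low means of 26.5, 27.0 and 28.6. Their changes in minimal medium were nearly the same (-0.806, -0.787 and -0.787), so they may not be separate signals. Summed over the Watson-strand frames, levels differed by orders of magnitude between the media. All frames together took 30.9 to 54.7% of the reads in minimal and 64.8 to 80.9% in YEPD libraries. RRT15, on the Watson strand, had 49.5, 61.5 and 113 normalized counts in minimal ADPRC libraries and 313, 258 and 192 in minimal mock libraries, against 876406, 644335 and 883456 in YEPD ADPRC libraries and at least 777468 in YEPD mock libraries. Its difference was -1.68 ± 0.39 with all 12 libraries (adjusted p = 0.281) and -1.83 ± 0.49 without replicate 2 (adjusted p = 0.0375), a call that was lost in 9 of the 25 settings, 8 of them with 1 further library left out and the other with the replicate block. Watson-strand frames together took under 0.05% of the reads in each minimal library and 51.2 to 62.4% in each YEPD library. Growth medium and a difference in library preparation or counting cannot be told apart here, since each medium forms its own set of libraries. By contrast, a few genes were far lower in YEPD than in minimal medium, among them RPL22A, of the large cytosolic ribosomal subunit, with 2954, 2546 and 3095 normalized counts in minimal ADPRC libraries, 1679.7, 1678 and 1803 in minimal mock libraries, 8.66, 26.9 and 6.79 in YEPD ADPRC libraries and 14.0, 9.03 and 18.1 in YEPD mock libraries, and MRPL51, of the mitochondrial ribosome. Their differences without replicate 2 were 1.45 ± 0.28 (adjusted p = 0.00376) and 1.49 ± 0.34 (adjusted p = 0.00291), and with it 0.88 ± 0.50 and 1.25 ± 0.37 (adjusted p = 0.677 and 0.378). In YEPD, RPL22A lay not far above the value of 3 reads, 2.18 to 3.39 normalized counts in ADPRC and 2.81 to 3.87 in mock libraries. Its YEPD change of -0.71 without replicate 2 therefore carries counting error and depends on the pseudocount. In RefSeq, MRPL51 overlaps YPR099C on the other strand.

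The strain label was checked on its defining genes. The 7 alpha-cell genes summed to 5410.0 to 7809 normalized counts in minimal ADPRC and 4738 to 5072 in minimal mock libraries. Their sums were 8578 to 12803 in the YEPD libraries with ADPRC and 8339 to 8917 in those with mock treatment. The 7 a-cell genes summed to 45.1 to 49.0 in minimal ADPRC and 48.8 to 64.4 in minimal mock libraries, against 81.5 to 119 and 105 to 119 in the YEPD libraries with ADPRC and with mock treatment, and MFA2 and ASG7 were at 0 in all minimal mock libraries. LEU2, LYS2 and URA3 were at 0 in every library. HIS3, of which the strain's allele lacks only an inner part, averaged 141 ± 5.09 normalized counts in minimal ADPRC and 102 ± 10.4 in minimal mock, and 183 ± 60.2 in YEPD ADPRC and 111 ± 17.3 in YEPD mock libraries (SD, n = 3). In pooled RNA of a culture, fewer cells with an RNA and less of it per cell cannot be told apart. Among alpha-cell genes, STE3, the a-factor receptor, had changes of 0.35, 0.37 and 0.12 in minimal medium and -0.25, -0.27 and -0.20 in YEPD, opposite in sign between the media in all 6 libraries. Its difference was 0.52 ± 0.14 with all 12 libraries (adjusted p = 0.358) and 0.51 ± 0.11 without replicate 2 (adjusted p = 0.00276).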

How the data were processed

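RNA was captured after ADPRC or mock treatment in 4 groups of 3 libraries and counted per gene. Per the submitters' processing notes, FastQC, Trimmomatic, Bowtie, HTSeq and DESeq were used, while the sources used here give no version, genome build, annotation or use of strand. Per the labels' protocols, total RNA was treated with DNase, and reverse transcription took place on the streptavidin beads. The deposited signal is a normalized count per gene, in which every value is a whole multiple of 1 step per library. Dividing by that step gave whole reads for 100% of values (tolerance 0.01 reads), so the authors' values are counts divided by 1 factor per library. Recovered reads per library ran from 6727168 to 7959385 (minimal ADPRC), 3246900 to 3937618 (minimal mock), 12051316 to 13958188 (YEPD ADPRC) and 11700161 to 13820148 (YEPD mock). A count of 0 allows up to 3 reads, and such limits cover counting error only.

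The table held 6608 rows with 6607 distinct identifiers, and 5919 identifiers matched a RefSeq gene (assembly R64), used for names, lengths from start to end with introns, and neighbours. Genes with a mean of at least 10 entered 1 limma fit (version 3.58.1 in R 4.3.3, with trend and robust estimation) of log2(value + 1) with 4 group means. Fold changes on that scale understate those of low genes. Tests were two-sided with Benjamini-Hochberg adjustment at 0.05 over all 5490 genes, and errors after ± are standard errors unless given as SD. Alternatives were other pseudocounts, filters and scalings, weights, removal of the length trend (loess, span 0.5), a replicate block, each library left out, and edgeR 4.0.16 and DESeq2 1.42.0 on the recovered reads, for which YEPD mock replicate 2 was left out because its step lies too near 1. The script was tested on simulated data. No pair of libraries agreed within sampling noise (lowest chi-square per degree of freedom 1.47).

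Members, gene lists and the repeat without YEPD ADPRC replicate 2 were chosen with earlier results of these data known. Named genes were the 15 highest and 15 lowest differences past the threshold on 12 libraries, of which there were none, the 5 highest and 5 lowest differences past the threshold in the repeat alone, genes called in opposite directions in the media, up to 3 called members and the member of highest mean of each list, and a fixed set of mitochondrial and NAD-cap decay genes. Since 0 genes were called with all 12 libraries, the rule was extended after values were seen to the genes of lowest p in either fit and to the called members and opposite genes of the repeat. Not every gene under the rule is printed.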

Additional observations from a re-analysis of the deposited data

Results flagged for a closer look

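The change after ADPRC was tested for a difference between the media, and without YEPD ADPRC replicate 2 that test was passed by 492 genes with a higher and 556 genes with a lower change in minimal medium. With all 12 libraries 0 genes passed it. The genes at the upper end were HNT3 (2.35 ± 0.51), SHG1 (2.08 ± 0.64), MNC1 (1.99 ± 0.63), MIN6 (1.98 ± 0.63) and YHR213W (1.94 ± 0.62), as log2 differences with standard errors. MNC1 and YHR213W were at or under 3 reads in all libraries of 1 medium, so their differences depend on the pseudocount. Of the called genes that RefSeq names outside the ribosomal DNA, those at the lower end were HAC1 (-1.65 ± 0.15), IRC13 (-1.60 ± 0.55), CUE4 (-1.53 ± 0.46), YLR112W (-1.28 ± 0.36) and TAF9 (-1.25 ± 0.24). What set YEPD ADPRC replicate 2 apart was not tested.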

How the results depend on the processing

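On 12 libraries, 22 of 26 alternatives gave 0 calls for the difference between media. The exceptions were 3 higher calls with neither a mean-variance trend nor robust estimation, 1 lower call with the length trend removed, 527 higher and 576 lower with weights per library, and the fit without YEPD ADPRC replicate 2. Leaving out 1 library gave 0 to 492 higher and 0 to 556 lower calls, the highest of each without that replicate. All settings applied to the remaining 11 libraries were chosen after seeing the data. There the 492 higher and 556 lower calls became 1689 and 29 with the same total per library, 273 and 263 with the length trend removed, and 270 and 265 with DESeq2. The lower calls became 965 with the same total outside ribosomal DNA and 314 with neither trend nor robust estimation. Leaving out 1 further library gave 286 to 511 higher and 271 to 613 lower calls, the lowest without YEPD ADPRC replicate 3, when that group rests on 1 library assumed to vary like the others. With a replicate block the unnumbered library was also set aside, so the block and the libraries change together. The fit then held 11 libraries with 0 calls and, without YEPD ADPRC replicate 2, 10 libraries with 312 higher and 255 lower calls, with YEPD ADPRC likewise on replicate 3 alone. The numbers did not pair the libraries (15 pairs of the same number, Pearson r of -0.146 to 0.317 between deviations from group means), and 4 of 11 numbered libraries correlated best with their own number. ADPRC against mock in minimal medium, with 1583 calls, gave 2543 with the same total, 1030 with the same total outside ribosomal DNA, 2888 with weights, 814 with the length trend removed and 548 to 2647 when 1 library was left out. The 2647 calls were without YEPD ADPRC replicate 2, which enters that contrast only through the shared spread. In YEPD, with 300 calls, these became 186 with the same total outside ribosomal DNA, 676 with weights, 173 with the length trend removed, 141 with edgeR, 150 with the replicate block and 107 to 1109 when 1 library was left out, the highest without YEPD ADPRC replicate 3.

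Of the named genes, 9 changed sign in some setting with all 12 libraries. With the same total per library, ATP6 became 0.183, COX3 0.0999, RAT1 0.239, TDH3 0.145 and XRN1 0.0463. With weights per library COX1 became -0.268, COX2 -0.0713 and TDH3 0.328. With the length trend removed COX2 became -0.0258 and RAT1 0.0833. With the replicate block ATP6 became 0.0952, COX3 0.123 and RAT1 0.0239. RAT1 was also 0.0116 with TMM, 0.0270 with quantile normalization and 0.00401 with the same total outside ribosomal DNA. Leaving out 1 library gave -0.519 to 0.233 for ATP6, -0.332 to 0.280 for COX1, -0.0533 to 0.250 for COX2, -0.611 to 0.114 for COX3, -0.216 to 0.259 for DXO1, -0.0820 to 0.0595 for RAT1, -0.0522 to 0.951 for SUI1 and -0.336 to 0.364 for TDH3. On 11 libraries COX1 became 0.334 with the length trend removed and 0.0361 with the same total, and RAT1 0.173 and 0.287 in these settings. COX2 became 0.0846 with DESeq2, 0.0879 with edgeR, 0.0432 with the replicate block and 0.330 with the same total, and TDH3 -0.305 with quantile normalization. Leaving out 1 further library gave -0.154 to 0.149 for COX2 and -0.315 to 0.622 for DXO1. None of the values of changed sign was past the threshold, and the cause was not tested. Over all named genes on 11 libraries and all settings, 1672 values kept sign and side of the threshold, 164 lost the call, 12 gained it and 15 changed sign.

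The median standard error of the difference was 0.23 on the log2 scale with 12 and 0.18 with 11 libraries, which limits what the test can call. A value of 3 reads was worth 1.597 to 5.42 normalized counts, so low genes carry counting error on top of it.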
